A study of Mus musculus with 6 samples.

Results

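Cytosolic ribosomal proteins are the protein part of the ribosome, the particle that translates messenger RNA. The genes were chosen by name and level: protein-coding genes whose mouse symbol has the form of Rps, Rpl or Rplp followed by a number and up to 2 letters, or is Rpsa, with a mean level over 6 libraries of 1 CPM (the reads of a gene scaled to a common library total) or more. This gave 80 genes, 32 of the small subunit and 48 of the large subunit, of 10511 genes at that level and 25654 genes with values. The rule used levels over all libraries and no difference between groups. Of 82 protein-coding genes with such a name, Rpl3l (0.0598 CPM) and Rpl10l (0 CPM) lay below the minimum, and Rpl39l, at 1.65 ± 1.33 and 0.882 ± 0.361 CPM in young and aged cells, just above it.

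The libraries came from wild-type female C57BL/6 mice aged 6 weeks (Young, 3 libraries) or around 65 weeks (Aged, 3 libraries). Splenic CD8 T cells were activated for 2 days with plate-bound antibody against TCR-β (3 µg/ml) plus antibody against CD28 (1 µg/ml). Interleukin 2 (10 ng/ml) was present throughout, and a further 5 days of culture followed in it on a new plate. All groups shared this activation, so no resting cells were compared. The labels call the libraries biological replicates and name no mouse for any of them, so p-values measure the spread between these libraries, part of which may be technical.

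The small subunit reads the messenger RNA, and the large subunit joins amino acids and carries a stalk of acidic proteins that recruits elongation factors. A ribosome needs its proteins in fixed proportions, and their genes are among the most strongly transcribed in dividing cells. Their mRNAs begin with a C followed by a run of pyrimidines, the TOP motif, through which the kinase complex mTORC1 and the RNA-binding protein LARP1 control their translation. Activated T cells build ribosomes as they grow and divide.

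Libraries held 1952552 to 2785915 reads. The reads mark the 3' end of polyadenylated transcripts, so levels in CPM do not grow with gene length. They can be set side by side between genes, except where reads are shared with near-copies, as described below. The summed level of 7 markers of CD8 T cells was 3229 to 3343 CPM in young and 2802 to 3133 CPM in aged libraries (5 of the 7 were called lower and 1 higher), while Cd4 with Foxp3 summed to 0.359 to 1.92 and 0 to 3.07 CPM. Of the markers of other cells, Ms4a1 and Cd79a of B cells, Lyz2 and Adgre1 of myeloid cells, Hbb-bs of red cells and both platelet markers were at 0 in every library. Markers of myeloid cells (5 genes) summed to 14.6 to 21.3 CPM in young and 6.66 to 19.3 CPM in aged libraries, those of natural killer cells (2 genes) to 20.4 to 26.5 and 11.9 to 17.9 CPM, those of B cells (4 genes) to 2.51 to 9.99 and 0 to 1.53 CPM, and those of red cells (3 genes) to 4.78 to 11.1 and 1.15 to 4.24 CPM. Their part in the results was not tested.

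Ribosomal protein genes have many near-copies in the genome, which decides how far a read at a transcript's end can be tied to its gene. Over the last 150 bases of each gene's principal transcript in GENCODE M21, 33 of the 80 genes had no 50-base word in a transcript of another gene, 28 had at least 50% of their words in one and 5 had all of them. Those 5 were Rpl10, Rps27, Rps27rt, Rpl9 and Rpl36a. The ends of Rpl10 and Rps27 are printed because the values of both genes turn on them. The final 30 bases of Rpl10 before its poly(A) tail are also in Rpl10-ps3, a gene named as a pseudogene but annotated as protein-coding, and those of Rps27 are also in Rps27rt.
Rpl10: caataataaaatctcgcatcaagttcgctt
Rps27: gaaccttcccaataaacacgttttggatat
Without gaps, Rpl10 and Rpl10-ps3 had 0 mismatches over 739 bases back from this end, Rps27 and Rps27rt 0 over 341 bases, and Rpl9 and Rpl9-ps6 4 over 694 bases. No source used here says how the authors' counting divided such reads.

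RefSeq's table of promoters (GRCm38.p6) held 60 of the 80 genes. A TOP-like motif, CTTTNC on the gene's strand between 50 bases before and 50 bases after the annotated start, was present in 31 of 60 (51.7%) of these genes and in 13.7% of the 27025 genes in the table (56.7% and 25.1% on either strand). CCGGAAG, the core bound by ETS factors, was present on either strand of the window from -250 to 50 around the start in 41.7% and 9.93%, and CAANATGGC, the core of the YY1 site, in 5% and 2.90%. The letters CAANATGGC, CCGGAAG and CTTTNC were each searched on their own, with no rule against overlap. Of the 31 genes with CTTTNC on their strand 20 were called lower in aged cells, with a median log2 fold change of -0.22. Of the 29 without it 23 were, with a median of -0.23. Of the 25 genes with CCGGAAG on either strand 15 were called lower, with a median of -0.21. Of the 35 without it 28 were, with a median of -0.26. On the gene's strand alone the counts for CCGGAAG were 7 of 16 with it and 36 of 44 without it. These differences were not tested. The stretches below run from 80 bases before to 20 bases after the start, with every CTTTNC (gene strand) and CCGGAAG (either strand) in capitals. Rpl38 is an example of a gene called lower in aged cells, and Rpl15 and Rpl35 are examples of genes not called. Rpl38 is not typical of the genes called lower. The same stretches of Rplp2 and Rps19, also called lower, held none of these motifs and are not printed. The first CTTTNC of Rpl38 lies more than 50 bases before the start, outside the window used for the counts. Rps27 and Rps27rt are a pair whose transcripts (345 and 374 bases) are the same over the 341 bases compared.
Rpl38: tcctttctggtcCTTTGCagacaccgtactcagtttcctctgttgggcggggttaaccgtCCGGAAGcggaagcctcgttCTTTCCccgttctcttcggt
Rpl15: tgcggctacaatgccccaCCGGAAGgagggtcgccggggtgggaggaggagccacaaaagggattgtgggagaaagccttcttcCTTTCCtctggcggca
Rpl35: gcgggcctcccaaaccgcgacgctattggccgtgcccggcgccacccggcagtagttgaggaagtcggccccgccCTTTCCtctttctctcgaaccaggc
Rps27: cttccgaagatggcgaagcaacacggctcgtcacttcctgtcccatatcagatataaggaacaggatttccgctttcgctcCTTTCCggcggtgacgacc
Rps27rt: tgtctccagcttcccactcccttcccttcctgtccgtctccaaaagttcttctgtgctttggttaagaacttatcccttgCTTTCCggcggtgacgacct
They lie at chr11:114668500-114668599 (plus strand), chr14:18270967-18271066, chr2:39005112-39005211, chr3:90213629-90213728 and chr9:114982720-114982819 (minus strand). Rps27 and Rps27rt share the 19 bases from CTTTCC onward, and 13 of the 70 bases before it are equal.

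Ribosomal protein transcripts took a smaller share of all reads in aged than in young cells. The family held 17.7%, 18.6% and 17.5% of reads in the young libraries and 15.8%, 15.3% and 15.5% in the aged libraries. Every aged library lay below every young one. The group values were 17.9 ± 0.571% and 15.5 ± 0.263% (SD, n = 3 per group), 13.3% lower in aged cells. Small subunit genes summed to 73193 ± 2247 CPM in the young group and 63798 ± 1052 CPM in the aged group, 12.8% lower, and large subunit genes to 106049 ± 3465 and 91590 ± 1634 CPM, 13.6% lower. The ratio of large to small subunit reads was 1.44 to 1.45 in young and 1.42 to 1.44 in aged libraries, so both subunits were lower by about the same share. These are shares of reads, and in bulk samples fewer cells of a type and less RNA per cell cannot be told apart.

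**Figure D1:**
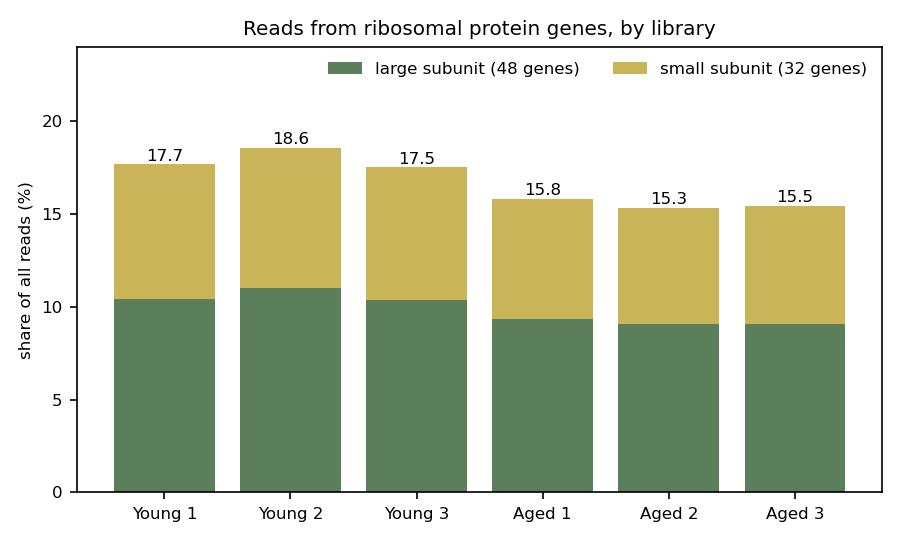
Share of all reads in each library (%) that came from the 80 ribosomal protein genes, stacked by subunit; the number above a bar is their sum. The 3 young bars stand at 17.5 to 18.6% and the 3 aged bars at 15.3 to 15.8%.

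Gene by gene, 58 of the 80 were lower in aged cells and 1 was higher (limma on log2(CPM + 1), Benjamini-Hochberg adjusted p under 0.05 over all 10511 genes tested), and 21 did not pass. Over all genes tested 12.5% were called lower and 16.2% higher. Among 1639 other genes averaging 100 CPM or more, a level at which small changes are easier to detect, 21.3% were called lower and 35.3% higher. In 63 of the 80 all aged values lay below all young values (18.3% of all genes tested), and in 1 they lay above (22.5%). The median log2 fold change, aged minus young, was -0.22 for the family and 0.03 for all genes tested. By subunit, 24 of 32 small subunit genes and 34 of 48 large subunit genes were called lower, each with a median of -0.22.

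The size of the decrease was alike in most of the family, though some members had log2 fold changes near 0 and are described below. The middle of the family's distribution, from the lower to the upper quartile of the log2 fold change, ran from -0.27 to -0.15. It ran from -0.26 to 0.32 for all genes tested, and from -0.17 to 0.33 for other genes averaging 100 CPM or more. Levels in CPM were 10 to 20% lower in 49 of the 80 genes, and 1 gene, Rpl10, passed a 2-fold change. The 58 genes called lower were 8.67% to 51.7% lower, and without Rpl10 at most 22.4%. Without Rpl10, Rps27 and Rpl39l, which are described separately, the lowest log2 fold change of the other 77 genes was -0.37, while their mean levels ranged from 222.2 to 5579.9 CPM. The order of the genes by level was nearly the same at both ages (Spearman's rho = 0.987 over 80 genes, a description, since the genes share the same libraries). The replicate spread was small beside these changes, with a median coefficient of variation of 3.98% in young and 2.77% in aged libraries. Young replicate 2 was the highest of the 6 libraries for 61 genes. Without it 54 genes were called lower and 1 higher, and the median was -0.19.

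**Figure D2:**
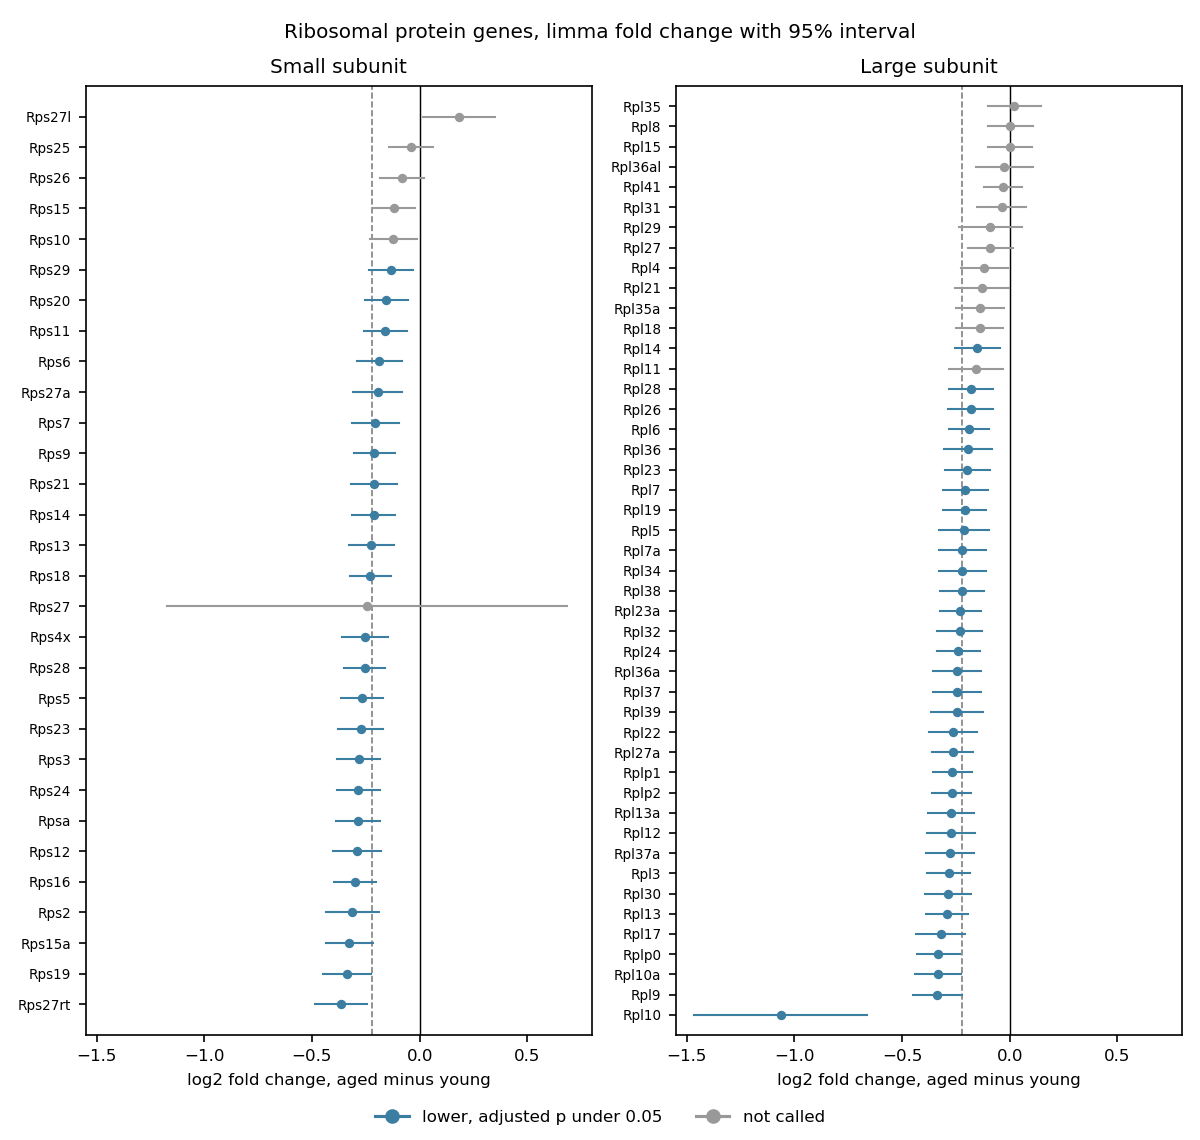
Log2 fold change (aged minus young, log2(CPM + 1) scale) of 76 ribosomal protein genes with the 95% interval from limma, small subunit left and large subunit right; Rpl39l, near 1 CPM, and 3 genes not reported singly are left out, and the dashed line is the median of -0.22 over all 80. Most intervals lie left of 0, and no gene plotted is called to the right of it.

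**Figure D3:**
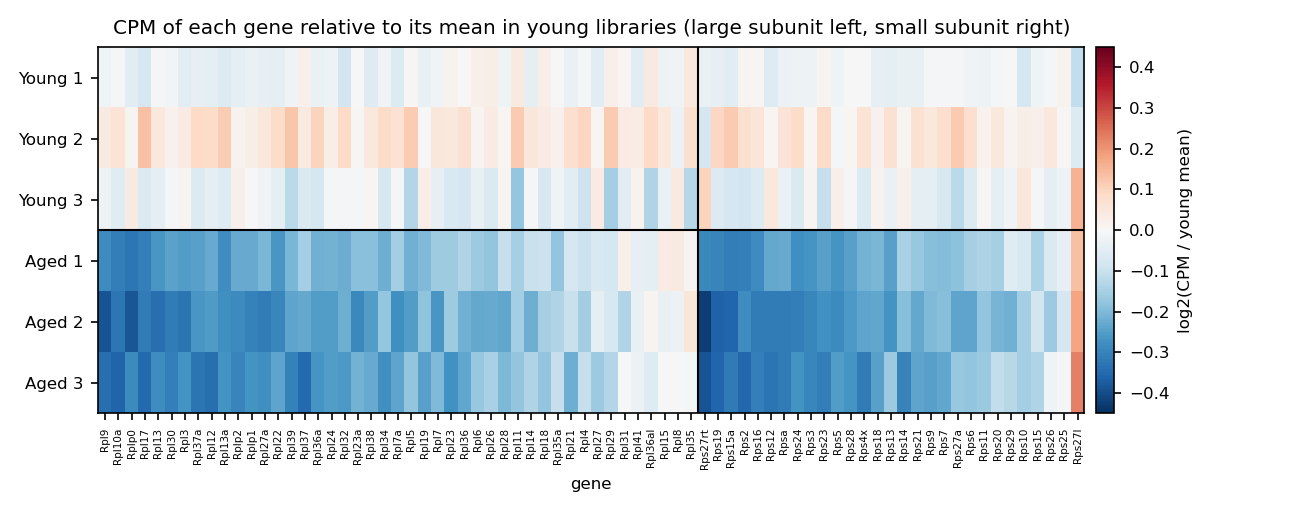
Each column is a gene and each row a library; the colour is log2 of the gene's CPM over its mean in the 3 young libraries, for 74 genes (without Rpl10, Rps27, Rpl39l and 3 genes not reported singly). The aged rows are blue for most genes, and Young replicate 2 is red for most.

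The stalk genes of the large subunit fell together. Rplp0 (ENSMUSG00000067274) encodes the base of the stalk, to which Rplp1 and Rplp2 proteins attach. Its levels were 2875, 3002 and 3061 CPM in young and 2378, 2282 and 2440.2 CPM in aged libraries. All aged values lay below the young values, and the level was 20.6% lower (log2 fold change -0.33 ± 0.05 SE, limma adjusted p = 3.01e-05), the smallest p of the family. Rplp1 was at 5520.3, 5736 and 5641 CPM in young and 4817, 4558 and 4673 CPM in aged libraries. Rplp2 was at 4950.4, 5136 and 5169.7 CPM in young and 4348, 4164 and 4141 CPM in aged libraries. Neither overlapped between the groups, and the decreases were 16.9% and 17.1% (limma adjusted p = 0.000114 and 0.000114).

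Of the 5 most abundant members 4 were called lower and Rpl41 was not. Rpl41, which encodes a very short basic peptide of the large subunit, was first in level at both ages, with 5444, 5778 and 5705 CPM in young and 5494, 5513 and 5545 CPM in aged libraries. Its groups overlapped and it was not called (log2 fold change -0.03, 95% interval -0.12 to 0.06, limma adjusted p = 0.635). Of the 50-base words at its 3' end 95.05% also occur in Gm10076, which has no value in the files used here. The next in level after Rplp1 were Rps23, a protein of the decoding centre, at 5512, 5813 and 5089 CPM in young and 4617, 4531 and 4412 CPM in aged libraries, and Rpl27a, at 5221, 5549.7 and 5307 CPM in young and 4645, 4312 and 4423 CPM in aged libraries. Both lay lower in every aged library than in any young one, by 17.4% and 16.8% (limma adjusted p = 0.000323 and 0.000198).

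Rpl10a and Rps19 followed Rplp0 among the members with the smallest p-values. Rpl10a, a large subunit protein near the exit site of tRNA, was at 1513, 1588 and 1465 CPM in young and 1226, 1214 and 1185 CPM in aged libraries. Rps19, a small subunit protein needed for its maturation and mutated in Diamond-Blackfan anaemia, was at 1712, 1872 and 1684 CPM in young and 1429.9, 1363 and 1371 CPM in aged libraries. Neither gene overlapped between the groups, and they were 20.6% and 20.9% lower (limma adjusted p = 6.17e-05 and 7.57e-05). Rps16 (2689.6 ± 109 and 2183 ± 25.2 CPM in young and aged cells) and Rpl13 (3389 ± 109 and 2767 ± 78.7 CPM) were lower by 18.9% and 18.4% (SD, n = 3 per group; limma adjusted p = 8.37e-05 and 9.03e-05). Rpl9 was at 958 ± 23.1 and 759 ± 28.4 CPM, 20.8% lower (limma adjusted p = 0.000106). Its near-copy Rpl9-ps6 was at 209 ± 17.6 and 216 ± 22.8 CPM, and the summed reads of both were 16.5% lower.

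Rps6, the small subunit protein phosphorylated downstream of mTORC1, was at 2858, 3042 and 2766 CPM in young and 2604, 2453 and 2552 CPM in aged libraries. Its groups did not overlap, and it was 12.2% lower (limma adjusted p = 0.007). Rpsa, also known as a laminin receptor, was 17.9% lower at 2379 ± 82.9 and 1953 ± 70.6 CPM (limma adjusted p = 0.000198). Rpl3, which shapes the peptidyl transferase centre, was 17.8% lower at 2489 ± 72.7 and 2045 ± 56.5 CPM (limma adjusted p = 0.000153). Rpl13a was 17.4%, Rpl22 16.7%, Rpl38 14.3%, Rpl39 15.8% and Rps4x 16.2% lower (limma adjusted p = 0.000495, 0.000941, 0.00184, 0.00363 and 0.000854). Rpl22 binds RNA outside the ribosome and is needed in T cell development, and Rpl39 lines the exit tunnel of the nascent chain.

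Rpl5 and Rpl11 enter the large subunit together with a small ribosomal RNA and, when free, bind and inhibit Mdm2, the ubiquitin ligase of p53. Rpl5 was at 2622, 2823 and 2385 CPM in young and 2246, 2193 and 2309 CPM in aged libraries. The groups did not overlap, and it was 13.8% lower (limma adjusted p = 0.00736). Rpl11 was at 2346, 2480.3 and 2025 CPM in young and 2057, 2054 and 2019 CPM in aged libraries. Young replicate 3 lay inside the aged range, and Rpl11 was not called (log2 fold change -0.16, 95% interval -0.28 to -0.03, limma adjusted p = 0.0616). It was called lower in 9 of the 19 alternative fits, among them all 4 other scalings, edgeR, DESeq2 and limma-voom, and without Young replicate 3, where the log2 fold change was -0.24. Mdm2 was at 122 ± 5.41 and 79.1 ± 5.04 CPM, 35.3% lower, Mdm4 at 55.9 ± 2.21 and 43.5 ± 4.75 CPM, 22.3% lower, and Trp53, which encodes p53, at 51.8 ± 10.2 and 47.7 ± 5.26 CPM and was not called (limma adjusted p = 4.92e-05, 0.0331 and 0.647).

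A few other members had log2 fold changes near 0. They were singled out after their values were seen. Rpl15, Rpl8 and Rpl35 of the large subunit had log2 fold changes of 0.00, 0.00 and 0.02, with 95% intervals of -0.10 to 0.11, -0.10 to 0.11 and -0.10 to 0.14. Rpl15 was at 1505, 1579.7 and 1497 CPM in young and 1568, 1493 and 1527 CPM in aged libraries. Rpl8 was at 1228, 1220.1 and 1277 CPM in young and 1277, 1218 and 1239 CPM in aged libraries. Both overlapped between the groups. Of the 50-base words at the 3' end 99.0% were shared for Rpl35, most with the gene Gm2000, and the sum of Rpl35 and Gm2000 was 2129 ± 111 and 2149 ± 34.4 CPM in young and aged cells. Rpl15 had no shared word. None of these 3 was called (limma adjusted p = 0.986, 0.97 and 0.827), and all 3 intervals lie above the family median of -0.22. Rpl31, Rps25 and Rps26 had log2 fold changes of -0.04, -0.04 and -0.08, and were not called. Rps26 was called lower in 1 of the 19 alternative fits, limma-voom, where its log2 fold change was -0.14, and Rpl31 and Rps25 in none. Exons of Rpl15, Rpl35, Rpl31 and Rps25 overlap exons of another gene on the opposite strand, and the strand setting of the counting is not given. The same holds for Rpl10a and Rpl5, described above. Over the family 12 of 18 genes with such an overlap were called lower, and 46 of 62 without it. Other genes that did not pass were Rpl4, Rpl18, Rpl21, Rpl27, Rpl35a, Rps10 and Rps15, with log2 fold changes from -0.14 (Rpl18) to -0.09 (Rpl27). All 7 were called lower in at least 1 alternative fit, from 1 (Rpl27) to 10 (Rpl18) of the 19, and Rpl15, Rpl8 and Rpl35 in none.

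Paralogs, extra gene copies that encode a related protein, were mixed. Rps27l, a p53 target and paralog of Rps27, was at 193, 199.6 and 232 CPM in young and 229, 235 and 244 CPM in aged libraries. Young replicate 3 lay within the aged range, and the gene was not called (log2 fold change 0.18, 95% interval 0.02 to 0.35, limma adjusted p = 0.0936), but without Young replicate 3 it was called higher, with a log2 fold change of 0.26. Rpl36a was at 1596 ± 101 and 1346 ± 23.5 CPM, 15.6% lower (limma adjusted p = 0.00187; 16.2% with the reads of its copies Rpl36a-ps1 and Gm6525 added), while its paralog Rpl36al was at 625 ± 49.4 and 613 ± 15.7 CPM and was not called (log2 fold change -0.03, 95% interval -0.16 to 0.11). The difference between these paralogs was not tested. Rpl39l, a paralog of Rpl39 known from testis, was at 0.435 to 3.07 CPM in young and 0.471 to 1.15 CPM in aged libraries, around the 1.08 to 1.54 CPM that 3 reads make in a library, so nothing is said of its change. Rpl29, a peripheral protein of the large subunit and the next gene up in level after Rps27l, was at 454 ± 42.6 and 425 ± 9.74 CPM and was not called (limma adjusted p = 0.368). Rpl22l1, the paralog of Rpl22 outside the naming rule, was at 601 ± 42.7 and 436 ± 15.8 CPM, 27.4% lower, and Rpl7l1, a paralog of Rpl7, at 66.1 ± 4.98 and 87.5 ± 8.94 CPM, 1.32-fold higher (limma adjusted p = 2.26e-05 and 0.00915).

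The largest change in the family belonged to Rpl10, and it was not kept once reads of its identical copy were added. Rpl10 encodes a large subunit protein that joins late in assembly. It was at 104, 67.1 and 96.1 CPM in young and 45.6, 56.0 and 27.8 CPM in aged libraries, 51.7% lower (log2 fold change -1.06 ± 0.19 SE, limma adjusted p = 0.000319). Rpl10-ps3, whose end is the same as the one printed above, was at 2051, 2171 and 2214 CPM in young and 2137, 2070.5 and 2163 CPM in aged libraries. Almost all reads of this sequence were therefore listed under Rpl10-ps3. Summed, the pair was at 2155, 2238 and 2309.7 CPM in young and 2183, 2126 and 2190.3 CPM in aged libraries. These sums overlapped between the groups, and the summed level was not called (log2 fold change -0.04, limma adjusted p = 0.537).

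Rps27 and Rps27rt showed the same division of reads with the opposite outcome. Rps27 was at 153, 336 and 35.7 CPM in young and 85.5, 122 and 106 CPM in aged libraries and was not called (limma adjusted p = 0.736). Without Young replicate 3, the lowest of the young values, it was called lower, with a log2 fold change of -1.12. Rps27rt, a copy of Rps27 on chromosome 9 that is identical over the 341 bases compared, was at 1176, 1139.7 and 1286 CPM in young and 981, 895 and 917 CPM in aged libraries, 22.4% lower (limma adjusted p = 9.19e-05). In the young libraries the one was high where the other was low. Their sums were 1328, 1476 and 1322 CPM in young and 1067, 1017 and 1024 CPM in aged libraries, and no aged sum reached a young one. The summed level was 24.7% lower (log2 fold change -0.41, limma adjusted p = 1.58e-05, a sum chosen after the values were seen).

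**Figure D4:**
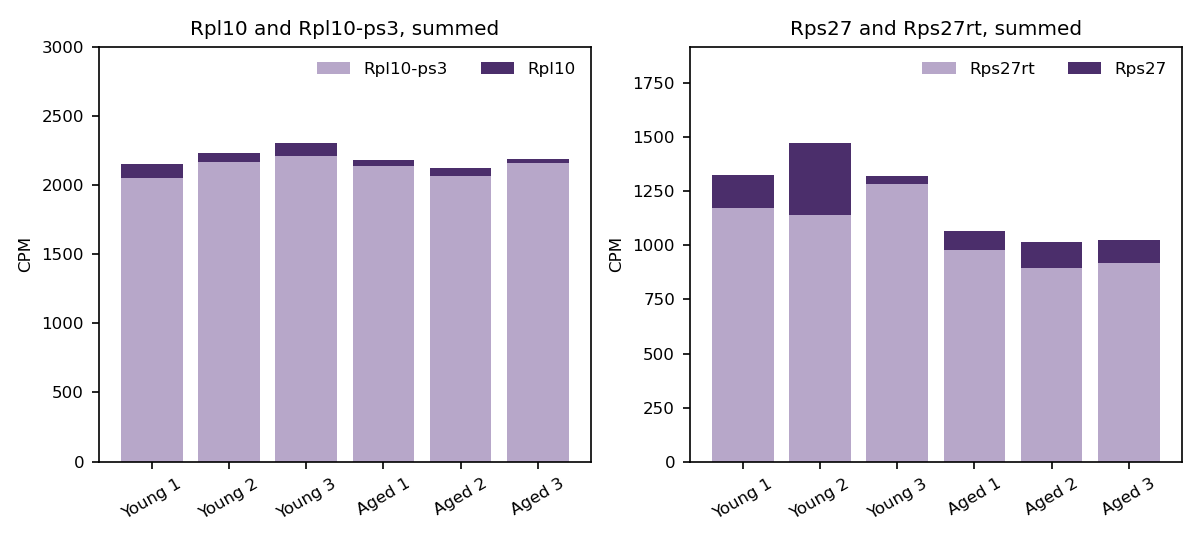
Level in CPM of Rpl10 stacked on Rpl10-ps3 (left) and Rps27 stacked on Rps27rt (right) in each library. The left sums lie at 2126 to 2309.7 CPM in all 6 libraries, while the right sums lie at 1322 to 1476 CPM in young and 1017 to 1067 CPM in aged libraries.

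Genes with a unique 3' end were mostly lower as well. Of the 33 genes with no shared word, 25 were called lower and 0 higher by limma, with a median log2 fold change of -0.27. Of the 28 genes with at least 50% of their words shared, 21 were called lower and 1 higher, with a median of -0.23. Among 19 genes mutated in Diamond-Blackfan anaemia, all of them members, 8 were called lower (42.1%, against 72.5% of the family and 12.5% of all genes tested) and 1 higher, with a median of -0.14. This difference from the family was not tested, and the 42.1% depends on the fit. Of this list Rpl11, Rpl18, Rpl35a and Rps10 were called lower with TMM and RLE scaling, edgeR and limma-voom, and Rpl27 and Rps26 with limma-voom. The family's count went from 58 to 65 with TMM scaling and to 67 with limma-voom. Rps27, also in the list, shares its end with Rps27rt.

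Rps27a and Fau, which encode ribosomal proteins fused to ubiquitin or a ubiquitin-like protein, were lower too. Rps27a was at 3137 ± 261 and 2734 ± 67.3 CPM, 12.8% lower, and Fau at 2955 ± 145 and 2221 ± 80.8 CPM, 24.8% lower (limma adjusted p = 0.011 and 5.21e-06). Of 20 tested genes outside the family whose mRNAs also carry a TOP motif, 9 fell and 2 rose, with a median of -0.12. The share that fell was 45%, against 12.5% of all genes tested and 21.3% of other genes averaging 100 CPM or more. Eef1a1, the factor that brings tRNA to the ribosome, was 16.7% lower at 7728 ± 135 and 6438 ± 68.5 CPM (limma adjusted p = 7.54e-05). Vim, the intermediate filament vimentin, was 41.0% lower, and Eif4b, an initiation factor, 1.33-fold higher (limma adjusted p = 8.75e-09 and 0.000185).

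Most of the genes listed here as handling new ribosomal proteins were higher in aged cells. The list was chosen with earlier results of these data known, and it also holds import receptors and a histone chaperone. Of 13 tested chaperones, importers and assembly factors of ribosomal proteins 10 rose (76.9%) and 0 fell in limma, with a median of 0.54. The share that rose was 16.2% of all genes tested and 35.3% of other genes averaging 100 CPM or more. Kpnb1, an import receptor, was at 151 ± 5.90 and 219.5 ± 11.4 CPM, 1.45-fold higher, and Nap1l1, a histone chaperone that is also in the list of TOP mRNAs, 1.35-fold higher (limma adjusted p = 3.02e-05 and 1.77e-05). Bysl and Ltv1, which act in maturation of the small subunit, were 1.90-fold and 1.96-fold higher, at 45.6 ± 6.76 and 86.7 ± 5.40 CPM and 28.9 ± 5.91 and 56.5 ± 1.63 CPM (limma adjusted p = 1.08e-05 and 5.34e-05). Among 12 tested ribosome-associated genes 4 rose (33.3%) and 2 fell (16.7%). These shares were 16.2% and 12.5% for all genes tested, and 35.3% and 21.3% for other genes averaging 100 CPM or more. Some genes of this list average under 100 CPM. Serbp1, which sits in the mRNA channel of idle ribosomes, was at 2316 ± 76.2 and 3108 ± 83.7 CPM, 1.34-fold higher, and Eif6, which keeps the large subunit from joining the small one, 1.43-fold higher (limma adjusted p = 1.66e-06 and 0.000747). Metap2, an aminopeptidase that removes the first methionine of nascent chains, was 1.25-fold higher, and Btf3, part of the nascent chain complex and also in the list of TOP mRNAs, 14.3% lower (limma adjusted p = 0.000489 and 0.0108).

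Of 16 tested regulators of TOP mRNAs and mTORC1 5 rose (31.2%), 1 fell (6.25%) and 10 did not pass, with a median of 0.01. The share that rose lies between those of all genes tested (16.2%) and of other genes averaging 100 CPM or more (35.3%). Larp1, which binds the TOP motif, was at 398 ± 24.6 and 504 ± 33.4 CPM, 1.27-fold higher, and the cap-binding protein Eif4e at 99.9 ± 17.5 and 154 ± 9.93 CPM, 1.54-fold higher (limma adjusted p = 0.000797 and 0.000203). Pdcd4, an inhibitor of the helicase of initiation that is degraded after mTORC1 signalling, was at 203 ± 17.7 and 74.0 ± 3.62 CPM, 63.6% lower, and Larp4, a poly(A)-binding partner, 1.63-fold higher (limma adjusted p = 3.74e-09 and 1.66e-05).

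**Figure D5:**
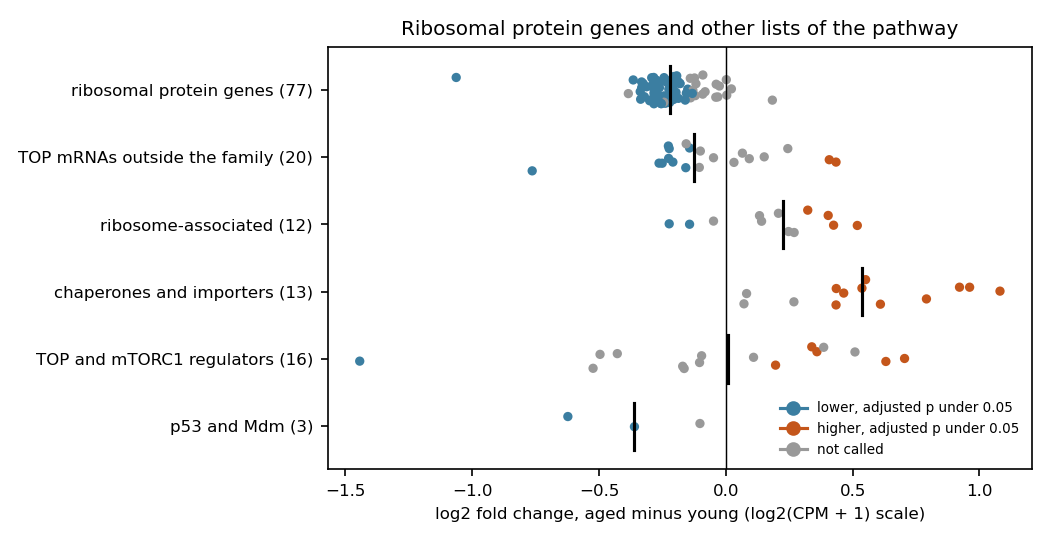
Log2 fold change (aged minus young) of single genes, a point each, in the family (77 genes, without 3 not reported singly) and in 5 other lists of the pathway; black ticks are medians, colours give the limma call, and the number of genes stands beside each list's name. Most of the family lies left of 0, with a median of -0.22, and the list of chaperones and importers right of it with a median of 0.54.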

How the data were processed

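The authors deposited 1 file per library with CPM for 25655 Ensembl gene identifiers; 1 identifier was blank in every file. Libraries were made with a QuantSeq 3' end kit, per the labels' protocols, and the genome build was GRCm38 (mm10), per the submitters' processing notes. No source used here gives the aligner, the counter, the strand setting or the treatment of reads with several matches. All deposited CPM values (100%) were whole multiples of the smallest within 0.001 reads, so whole reads were recovered. A file whose header names Aged replicate 3 was taken as replicate 2, following the sample records. A count of 0 allows up to 3 reads, 1.08 to 1.54 CPM, for counting error only.

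Symbols and gene types were taken from GENCODE M21 for 25599 identifiers. The main test was limma 3.58.1 with an intensity trend (R 4.3.3), two-sided, on log2(CPM + 1) of genes averaging 1 CPM or more, with age group as the sole term and Benjamini-Hochberg adjustment over all genes. Fold changes are aged minus young; percent and fold values are of group means in CPM. The fit was tested on simulated counts in which each gene varied independently. That test does not cover genes that vary together between libraries. The recovered reads were tested with edgeR 4.0.16, DESeq2 1.42.0 and limma-voom among the alternatives. Members and lists were chosen with earlier results of these data known. Named members were those with the smallest p, the largest change, the highest and lowest levels, and a fixed set of known roles; up to 4 genes with the smallest p were taken from other lists. Values of some single genes that this rule takes in are not reported here, while counts and sums over the family hold them.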

Additional observations from a re-analysis of the deposited data

How the results depend on the processing

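Of the 58 genes called lower 52 were called lower in all 19 alternative fits. Rps29, Rps20, Rpl14, Rps27a and Rpl26 lost their call in some, and Rpl10 once reads of pseudogenes named for a member were added. Of the 21 genes not called 10 were not called in any alternative fit. TMM scaling added Rpl4, Rpl11, Rpl18, Rpl21, Rpl35a, Rps10 and Rps15 to those called lower. Counts of genes called lower ran from 54 to 61 when a library was left out, and counts called higher from 1 to 2, with Rps27l the second gene without Young replicate 3. The median was -0.19 to -0.24 over the same fits. It moved by more than the spread between libraries to -0.27 with TMM, RLE and upper-quartile scaling. It likewise moved to -0.26 when scaled to genes outside the family, to -0.28 with edgeR and limma-voom, and to -0.27 with DESeq2. The median over all genes tested moved the same way, from 0.03 to -0.02 with TMM, edgeR and limma-voom. That median was -0.01 with RLE and upper-quartile scaling, DESeq2 and scaling to genes outside the family. For the 33 genes with unique ends, a subset chosen after seeing the data, the members' median also moved, to -0.27 (25 lower, 0 higher). With TMM scaling the family's summed level, aged over young, was 0.835 against 0.867. In edgeR's fit to the recovered reads 65 members were called lower and 1 higher, and over all genes 1557 lower and 1443 higher. DESeq2 called 952 of all genes higher, against 1701 with limma, and the cause was not tested. With the replicate number as a block 60 genes were called lower and 1 higher. The main test assumed no pairing of same-numbered libraries. Their deviations had correlations of 0.021, 0.00025 and 0.0028, which cannot settle whether they shared a preparation. The summed level has no value under settings of the test, filter, pseudocount or block.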
